A study of Mus musculus with 8 samples.

Results

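Mitochondria make most of a cell's ATP with a chain of protein complexes in their inner membrane, and the nuclear genes for the subunits of complexes II, III, IV and V, with cytochrome c, are described here in renal cortex of mice at postnatal day 7. Members were taken by symbol: the protein-coding rows named Cyc1, Cycs, Sdha, Sdhb, Sdhc or Sdhd and those whose symbol starts with Uqcr, with Cox and a digit from 4 to 8, or with Atp5. The rule found 49 of the 35275 genes listed, with 4 in complex II, 9 in complex III, 18 in complex IV and 17 in complex V, and cytochrome c as 1 more. Atp5s and Atp5sl carry the Atp5 name without being subunits of the core enzyme, and were kept because the rule takes them. Cox7a2l, a supercomplex factor, was counted with complex IV for the same reason. The rule used no measured value, but the members were listed with earlier results of these data known. RNA was sequenced from 4 mutant mice (Mut1393, Mut1453, Mut1454 and Mut1819), labelled as a Six2-Tfam knockout line, and from 4 control mice (Con1391, Con1452, Con1822 and Con1823), labelled Cre-, with 1 library per mouse. Cre under Six2 control acts in nephron progenitors and so in tubule and podocyte lineages, while collecting duct, vessels, stroma and immune cells come from other progenitors. Tfam encodes the factor that packages and transcribes mitochondrial DNA. The labels do not give the alleles beyond the line's name, and no library of mice with Cre and an intact Tfam gene was analysed here, so loss of Tfam and presence of Cre cannot be told apart.

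Complex II, succinate dehydrogenase, passes electrons from succinate to ubiquinone and is built from nuclear genes alone. Complex III passes them on to cytochrome c, complex IV from cytochrome c to oxygen, and complex V, the ATP synthase, uses the proton gradient that complexes III and IV help to build. Complexes III, IV and V mix nuclear subunits with a few encoded by mitochondrial DNA, and proximal tubule, the most abundant segment of the cortex, is rich in all of them.

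Counted reads per library ranged from 15597762 to 20417550. Tfam mRNA was at 27.0, 26.5, 26.8 and 27.6 CPM (counts relative to the scaled library size) in the mutants and 54.5, 54.4, 48.7 and 54.8 CPM in the controls, a log2 fold change of -0.98 (SE 0.06, edgeR adjusted p = 1.58e-07), and the counts do not show which part of the transcript is lost. Values per mouse stand in the order of the mice given above, and every log2 fold change is mutant over control. Sex was not balanced: Y-linked counts were 4915, 4294, 4862 and 27 in the mutants and 0, 2, 3 and 2 in the controls, so 3 mutants had Y-linked RNA and Mut1819 and the 4 controls had almost none. A term for Y-linked counts therefore rests largely on Mut1819 against the controls. Mut1393 and Con1391 held brown fat markers, with 121 and 182 counts of Ucp1 against 0 to 5 in the other 6 mice, while the marker Elovl3 had 0 or 1 count in every mouse. The mouse numbers fall into ranges (1300, 1400 and 1800) whose meaning the labels do not give. Markers of proximal tubule fell for 10 of 10 genes, with a summed level of 612 to 1135 CPM in mutants and 4636 to 6430 CPM in controls, and macrophage markers rose for 5 of 5 genes, with 142 to 160 CPM in mutants and 88.0 to 102 CPM in controls. Of the 4 markers listed for each other cell type, 4 fell for distal convoluted tubule and endothelium, 3 for thick ascending limb, collecting duct and podocytes, and 1 for stroma and for vascular smooth muscle, and none rose. Their part in the results below was not tested, and in whole cortex fewer cells of a type and less RNA per cell cannot be told apart.

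The members that changed went both ways, and how many were called depended on the fit. Of 49 members, 46 passed the filter on low counts, and 15 of these were called at an adjusted p under 0.05, 4 higher and 11 lower in mutants (32.6%), where 46.2% of all 15028 genes tested were called (23.5% higher and 22.7% lower). The median log2 fold change was -0.10 over the 46 members and -0.001 over all genes tested, with 31 members negative and 15 positive. Mutants and controls did not overlap for 9 members, 4 higher and 5 lower in mutants, where 43.0% of all genes tested did not overlap (22.1% higher and 20.8% lower). The members called higher were Uqcrq of complex III, cytochrome c (Cycs), Cox6a2 of complex IV, and Cox7a2l, a supercomplex factor grouped with complex IV. Apart from Cox6a2, Uqcrq was thus the only subunit of complexes II to V called higher. Cox6a2 passed the filter on low counts through the mutants alone, so it had to differ. Its call and its lack of overlap add nothing to any tally of rises given here or below. The members called lower were Sdha, Sdhc and Sdhd of complex II, Uqcrh of complex III, and Cox6c, Cox7a1, Cox7a2 and Cox7b of complex IV. Atp5e and Atp5k of complex V were also called lower, as was Atp5sl, grouped there by name only. Apart from Cox6a2 and Cox7a1, all called changes lay between 0.21 and 0.42 on the log2 scale in size. The 31 members not called ranged from -0.33 for Cox6b2 to 0.27 for Cox5a. An unadjusted p under 0.05 was found for 22 of the 46. At least 46.2% of all genes tested had one too, as that share passed after adjustment. A term for the mouse number range gave 27 of 46 called (58.7%), 5 higher and 22 lower, where 48.2% of all genes were called (24.3% higher and 23.9% lower), with a median of -0.15 over members. Scaling by total counts alone gave 8 higher and 6 lower of 46 (29.8% and 17.7% of all genes), with a median of -0.03 over members and 0.075 over all genes, so the split between rises and falls depends on the scaling. The 11 falls numbered 7 without Con1391, 6 without Con1452 and 6 without Mut1819, where 20%, 20.9% and 20.4% of all genes were called lower, and the 4 rises numbered 7 without Con1452, where 21.8% of all genes were called higher. Without Con1391 and Mut1393 together, the libraries with brown fat markers, 5 members were called higher and 6 lower (21.6% and 21.2% of all genes). With a term for Y-linked counts, Cox6a2 was called higher and Sdha, Sdhc and Sdhd lower, 1 and 3 members (26.4% of all genes called), and with Mut1819 alone against the controls 1 of 47 was called higher and 4 lower (23.3%). The fit of Mut1819 alone takes its spread from the 4 controls and makes nearly the same contrast as the Y-linked term, so it adds little to it.

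**Figure D1:**
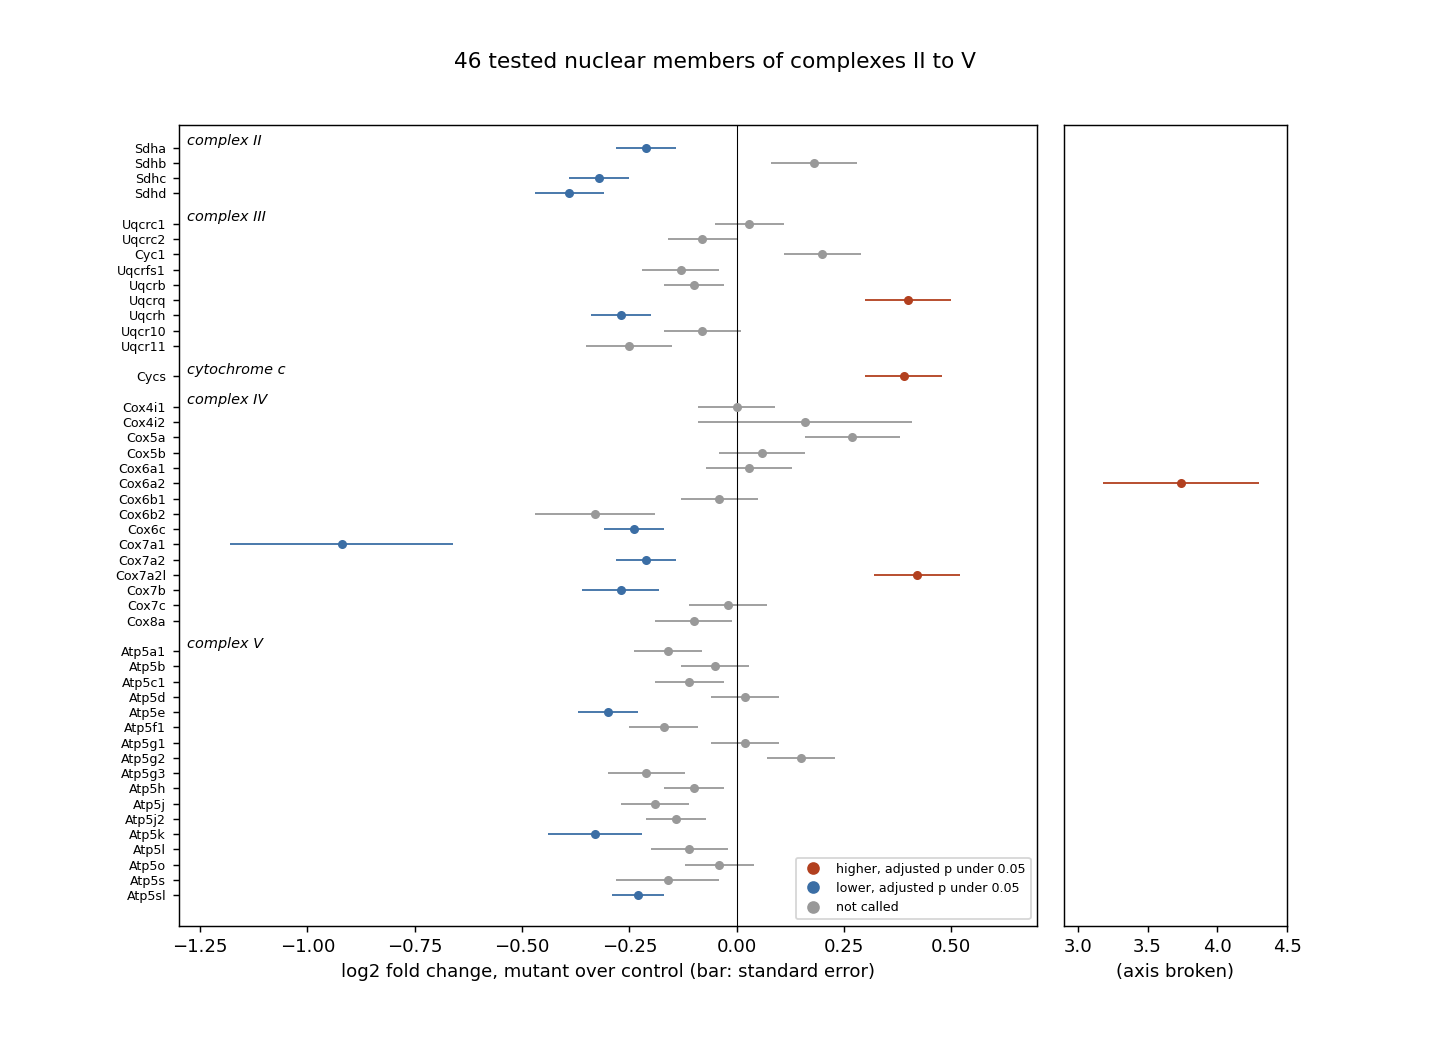
Log2 fold change of mutant over control (x axis) for the 46 tested members, grouped by complex down the page, with points for the edgeR estimate and bars for its standard error; the axis is broken for Cox6a2. The 4 members called higher are red, the 11 called lower are blue, and the 31 others, within -0.33 to 0.27, are grey.

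In complex II, Sdha, Sdhc and Sdhd fell, and Sdhb was not called. Sdhd (ENSMUSG00000000171, mm10 chromosome 9, 50596357 to 50603812, minus strand), which with Sdhc anchors the enzyme in the membrane, had 202, 195, 221 and 173 CPM in mutants and 251, 288, 243 and 252 CPM in controls. Every mutant was below every control, with a log2 fold change of -0.39 (SE 0.08, edgeR adjusted p = 0.00198). Sdhc (ENSMUSG00000058076, chromosome 1, 171127165 to 171150603, minus strand) had 171, 186, 189 and 161 CPM in mutants and 227, 232, 208 and 216 CPM in controls, with no overlap and a log2 fold change of -0.32 (SE 0.07, edgeR adjusted p = 0.00178). Sdhc and Sdhd were called under 20 of 20 settings, the term for Y-linked counts (-0.45, adjusted p = 0.00636 for Sdhc, and -0.58, adjusted p = 0.00370 for Sdhd) among them.

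Sdha (ENSMUSG00000021577, chromosome 13, 74322254 to 74350280, minus strand), the flavoprotein that oxidises succinate, had 539, 565, 580 and 498 CPM in mutants and 623, 680, 613 and 609 CPM in controls. The groups did not overlap, and the log2 fold change was -0.21 (SE 0.07, adjusted p = 0.0247). It was called under 14 of 20 settings. The call was lost without Con1452 (-0.16, adjusted p = 0.0787), without Mut1819 (-0.17, adjusted p = 0.0744), without Con1391 and Mut1393 together (-0.21, adjusted p = 0.0679), with total counts alone (-0.13, adjusted p = 0.0917), with no filter (-0.19, adjusted p = 0.0603) and with Mut1819 alone (-0.34, adjusted p = 0.0537). Sdhb (ENSMUSG00000009863, chromosome 4, 140961203 to 140979193, plus strand), the iron-sulfur subunit that takes electrons from Sdha, had 203, 254, 259 and 201 CPM in mutants and 199, 234, 188 and 187 CPM in controls. Its groups overlapped, with Con1452 above Mut1393 and Mut1819, and its log2 fold change of 0.18 (SE 0.10) was not called (adjusted p = 0.164). Without Con1452 it was called higher (0.27, adjusted p = 0.044), and with the term for Y-linked counts it was -0.01 (adjusted p = 0.974). The ratio of Sdhb counts to Sdhd counts, chosen after the values were seen, was 1.0 to 1.3 in mutants and 0.741 to 0.815 in controls, and Sdhb over Sdhc was 1.19 to 1.37 in mutants and 0.863 to 1.01 in controls. Both ratios separated the groups without any scaling between libraries. Their denominators already differed between the groups without overlap, so this separation adds no further support. On a per-length scale, CPM per kilobase of the longest coding transcript, Sdhb averaged 201 ± 27.8 in mutants and 177 ± 19.5 in controls, and Sdhd 161 ± 16.1 in mutants and 210 ± 16.1 in controls (SD, n = 4 each).

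Promoter windows are shown for 6 members whose mRNAs fell, rose or were not called, so that Sdhb can be read beside Sdha and Sdhd and Cycs beside the falls in complexes III and V. Each is the RefSeq window of build GRCm38.p6, 250 bases before to 50 after the gene's start, so that position 251 is the start, written 5′ to 3′ on the gene's own strand. Capitals mark exact matches on either strand to the motifs of NRF1 (GCGCA, any base, GCGC), of ETS factors such as GABP (CCGGAAG) and of YY1 (AA, any base, ATGGCG, any base, C), which are known from nuclear genes for mitochondrial proteins. Sites that differ from a motif by any base were not counted. The windows are Sdha at chr13:74350191-74350490 (minus strand), Sdhb at chr4:140961021-140961320 (plus strand), Sdhd at chr9:50603800-50604099 (minus strand), Uqcrh at chr4:116075021-116075320 (minus strand), Cycs at chr6:50566520-50566819 (minus strand) and Atp5k at chr5:108434350-108434649 (minus strand).
Sdha: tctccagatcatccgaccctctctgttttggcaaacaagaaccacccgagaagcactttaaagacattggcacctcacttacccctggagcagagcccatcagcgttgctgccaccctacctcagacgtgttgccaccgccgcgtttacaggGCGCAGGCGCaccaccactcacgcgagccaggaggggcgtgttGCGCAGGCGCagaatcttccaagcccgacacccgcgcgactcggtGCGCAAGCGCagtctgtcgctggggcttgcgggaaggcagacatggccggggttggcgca
Sdhb: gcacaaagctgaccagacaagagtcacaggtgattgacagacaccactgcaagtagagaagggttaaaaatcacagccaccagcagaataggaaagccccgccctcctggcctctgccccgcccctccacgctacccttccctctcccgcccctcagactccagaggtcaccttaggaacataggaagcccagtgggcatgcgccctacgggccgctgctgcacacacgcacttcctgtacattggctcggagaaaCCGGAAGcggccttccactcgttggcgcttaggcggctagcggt
Sdhd: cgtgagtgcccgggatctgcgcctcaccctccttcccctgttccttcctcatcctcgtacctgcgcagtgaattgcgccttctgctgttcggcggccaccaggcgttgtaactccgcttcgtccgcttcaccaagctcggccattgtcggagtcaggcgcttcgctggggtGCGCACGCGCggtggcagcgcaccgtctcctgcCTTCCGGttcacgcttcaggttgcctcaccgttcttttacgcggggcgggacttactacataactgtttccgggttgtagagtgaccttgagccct
Uqcrh: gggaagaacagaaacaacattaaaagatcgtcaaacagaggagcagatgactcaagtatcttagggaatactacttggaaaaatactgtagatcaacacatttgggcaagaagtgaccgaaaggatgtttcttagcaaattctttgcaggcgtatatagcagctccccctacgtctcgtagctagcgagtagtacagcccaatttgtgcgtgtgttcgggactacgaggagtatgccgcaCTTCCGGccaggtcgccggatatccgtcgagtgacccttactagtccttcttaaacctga
Cycs: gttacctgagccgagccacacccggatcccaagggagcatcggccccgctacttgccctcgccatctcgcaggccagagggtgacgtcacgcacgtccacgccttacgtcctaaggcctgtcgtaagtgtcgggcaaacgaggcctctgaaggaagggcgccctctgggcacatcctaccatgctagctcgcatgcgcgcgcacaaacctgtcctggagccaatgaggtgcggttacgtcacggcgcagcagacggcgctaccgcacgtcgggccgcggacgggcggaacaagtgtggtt
Atp5k: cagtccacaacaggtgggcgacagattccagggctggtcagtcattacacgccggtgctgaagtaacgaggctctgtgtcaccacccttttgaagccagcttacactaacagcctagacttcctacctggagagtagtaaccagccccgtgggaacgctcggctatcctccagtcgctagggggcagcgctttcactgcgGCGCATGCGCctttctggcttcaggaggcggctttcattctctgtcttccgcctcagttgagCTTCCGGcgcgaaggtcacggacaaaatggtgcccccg
The Sdha window held the NRF1 motif 3 times, at positions 153, 196 and 241, and the Sdhd window held an NRF1 match at 172 and an ETS match on the opposite strand at 205. Sdhb held an ETS match alone, at 257, just past its start. Uqcrh held an ETS match at 241, and Atp5k an NRF1 match at 201, which reads the same on both strands, and an ETS match at 263. The Cycs window held no exact match, but its stretch tcgcatgcgc differs from the NRF1 motif only in the first base. A lack of matches therefore does not show that a site is absent. Of the 49 members, 38 had a window, and 10 of these (26.3%) held the NRF1 motif, 12 (31.6%) the ETS motif and 2 (5.3%) the YY1 motif, against 7.2%, 12.9% and 2.4% of 17491 genes with a window. Among windows of members called lower, 3 of 9 held NRF1 and 4 of 9 ETS, and among those of members not called 7 of 25 held NRF1 and 8 of 25 ETS. None of the 3 motifs was found in 3 of 9 windows of members called lower (Cox7a1, Cox7a2 and Cox7b). The same held for 11 of 25 windows of members not called. The windows printed here, where every falling member holds a match, do not stand for the full set. The 2 windows of members called higher, Cycs and Cox7a2l, held no exact match.

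**Figure D2:**
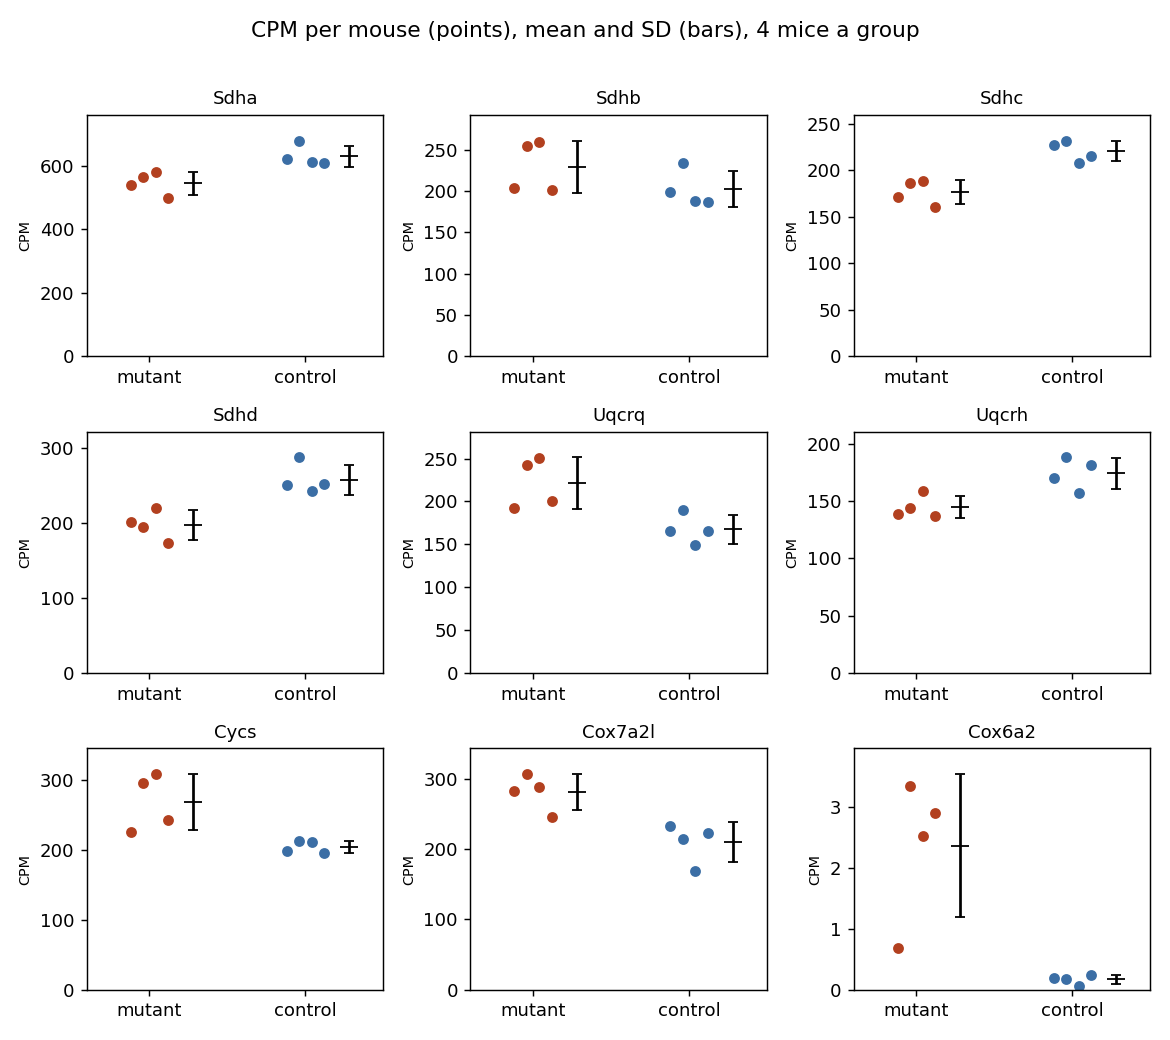
CPM per mouse (y axes from 0) for 9 members, with 1 point per mouse, mutants red and left, controls blue and right, and bars for mean and SD over 4 mice. Sdha, Sdhc and Sdhd lie lower and Uqcrq, Cycs, Cox7a2l and Cox6a2 lie higher in all 4 mutants, while the groups overlap for Sdhb and Uqcrh.

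In complex III 1 member rose, 1 fell and 7 were not called, with a median log2 fold change of -0.08 over the 9. Uqcrq (ENSMUSG00000044894, chromosome 11, 53427922 to 53430831, minus strand), a small subunit that sits beside cytochrome b, had 192, 243, 251 and 200 CPM in mutants and 166, 190, 149 and 165 CPM in controls. All mutants were above all controls, by a narrow margin between Mut1393 and Con1452, and the log2 fold change was 0.40 (SE 0.10, adjusted p = 0.00532). Uqcrh (ENSMUSG00000063882, chromosome 4, 116066965 to 116075071, minus strand), the acidic hinge subunit that helps cytochrome c to dock, had 139, 144, 159 and 137 CPM in mutants and 170, 188, 157 and 181 CPM in controls. Mut1454 lay above Con1822 and the other mutants below every control, and the log2 fold change was -0.27 (SE 0.07, adjusted p = 0.00829). The ratio of Uqcrq to Uqcrh counts, again chosen after the values were seen, was 1.38 to 1.68 in mutants and 0.909 to 1.01 in controls. Neither call held with the term for Y-linked counts (0.26, adjusted p = 0.241 for Uqcrq, and -0.34, adjusted p = 0.0512 for Uqcrh).

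The catalytic and core subunits of complex III were not called. Cyc1, the cytochrome that hands electrons to cytochrome c, averaged 326 ± 38.7 CPM in mutants and 283 ± 23.2 CPM in controls, with a log2 fold change of 0.20 (SE 0.09, edgeR adjusted p = 0.0796). It was called higher without Con1452 (0.27, adjusted p = 0.029), without Mut1393 (0.26, adjusted p = 0.0324) and without Mut1819 (0.25, adjusted p = 0.0477). The Rieske iron-sulfur protein Uqcrfs1 averaged 245 ± 30.1 CPM in mutants and 268 ± 15.8 CPM in controls (log2 fold change -0.13, adjusted p = 0.230). The core proteins Uqcrc1 and Uqcrc2 had log2 fold changes of 0.03 and -0.08, and the small subunits Uqcrb, Uqcr10 and Uqcr11 of -0.10, -0.08 and -0.25. Uqcr11, with 91.2, 96.6, 112 and 90.4 CPM in mutants and 128, 127, 95 and 115 CPM in controls, came closest to the threshold (adjusted p = 0.0541). An antisense gene overlaps 19.7% of the exons of Uqcrc2, and strandedness is not given, so its counts are uncertain.

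Cytochrome c itself rose. Cycs (ENSMUSG00000063694, chromosome 6, 50562563 to 50566538, minus strand), the soluble carrier between complexes III and IV that also triggers apoptosis when released, had 226, 296, 308 and 243 CPM in mutants and 198, 213, 211 and 196 CPM in controls. Every mutant was above every control, with Mut1453 and Mut1454 highest, and the log2 fold change was 0.39 (SE 0.09, adjusted p = 0.00491). Near-identical copies in other annotated transcripts cover 32.1% of its transcript, so part of its count is uncertain. With the term for Y-linked counts the value was 0.25 (adjusted p = 0.235). The ratio of Cycs counts to those of Cyc1, its electron donor, was 0.778 to 0.848 in mutants and 0.673 to 0.789 in controls, and the groups overlapped.

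In complex IV 2 members rose, Cox7a2l and Cox6a2, and 4 fell among 15 tested, with a median log2 fold change of -0.02. Of the rises, Cox7a2l is a supercomplex factor, and Cox6a2 passed the filter through the mutants alone. Most general subunits did not pass the test: Cox4i1, at 444 ± 41.0 CPM in mutants and 444 ± 51.6 CPM in controls, Cox6a1, Cox8a, Cox7c, Cox5b and Cox6b1 all had log2 fold changes between -0.10 and 0.06. Cox4i1 and Cox6a1 are a regulatory subunit and the general form of subunit VIa, Cox8a and Cox7c are small membrane subunits, and Cox5b and Cox6b1 face the matrix and the intermembrane space. Cox5a, the matrix partner of Cox5b, had 77.3, 95.2, 101 and 73.8 CPM in mutants and 66.4, 83.9, 67.4 and 70.5 CPM in controls, with a log2 fold change of 0.27 (SE 0.11, edgeR adjusted p = 0.0585). Near-identical copies in other annotated transcripts cover 45.1% of the transcript of Cox5b and 32.9% of that of Cox7c. Antisense genes at the same locus, Emc8 and Gm26631, overlap 9.9% of the exons of Cox4i1 and 12.8% of those of Cox5a, so part of the counts of all 4 genes is uncertain.

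Of the members named Cox7 that were tested, Cox7a2l rose, Cox7a1, Cox7a2 and Cox7b fell, and Cox7c was not called (-0.02, adjusted p = 0.894). Cox7a2l (ENSMUSG00000024248, chromosome 17, 83501918 to 83517330, minus strand), which links complexes III and IV into supercomplexes, had 283, 306, 288 and 245 CPM in mutants and 233, 214, 169 and 222 CPM in controls. All mutants were above all controls, with a log2 fold change of 0.42 (SE 0.10, edgeR adjusted p = 0.00446), and near-identical copies cover 17.8% of its transcript. With the term for Y-linked counts the value was 0.22 (adjusted p = 0.284). Cox7a2 (ENSMUSG00000032330, chromosome 9, 79755361 to 79759878, minus strand), the form of subunit VIIa used in most tissues, had 105, 125, 107 and 106 CPM in mutants and 128, 143, 120 and 123 CPM in controls. Only Mut1453 reached the controls, and the log2 fold change was -0.21 (SE 0.07, adjusted p = 0.0318). The ratio of Cox7a2l to Cox7a2 counts, chosen after the values were seen, was 2.3 to 2.68 in mutants and 1.4 to 1.82 in controls.

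Cox7b and Cox6c, small membrane subunits of the holoenzyme, also fell. Cox7b (ENSMUSG00000031231, chromosome X, 106015700 to 106022450, plus strand) had 138, 150, 160 and 146 CPM in mutants and 179, 206, 151 and 177 CPM in controls, with Con1822 inside the mutants' range and a log2 fold change of -0.27 (SE 0.09, edgeR adjusted p = 0.0231). It is X-linked, and the groups differ in sex as described above. Cox6c (ENSMUSG00000014313, chromosome 15, 35925886 to 35938246, minus strand) had 216, 232, 242 and 218 CPM in mutants and 282, 286, 234 and 269 CPM in controls. Mut1454 lay above Con1822, and the log2 fold change was -0.24 (SE 0.07, adjusted p = 0.0184). The antisense gene Vps13b overlaps 7.0% of its exons. The calls of Cox6c, Cox7a2 and Cox7b each depended on more than 1 mouse. Without Con1452 the values were -0.20 (adjusted p = 0.0592) for Cox6c, -0.15 (adjusted p = 0.0986) for Cox7a2 and -0.18 (adjusted p = 0.0743) for Cox7b, and without Mut1819 -0.22 (adjusted p = 0.0507), -0.19 (adjusted p = 0.0842) and -0.26 (adjusted p = 0.0545). Without Con1391 they were -0.21 for Cox6c (adjusted p = 0.0599), -0.21 for Cox7a2 (adjusted p = 0.0636) and -0.26 for Cox7b (adjusted p = 0.0537). The call of Cox7a2 was also lost without Mut1393 (-0.19, adjusted p = 0.0719) and without Mut1454 (-0.19, adjusted p = 0.0826), and that of Cox7b without Mut1393 (-0.23, adjusted p = 0.0554).

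The isoforms of complex IV known from striated muscle were rare and did not move together. Cox6a2 (ENSMUSG00000030785, chromosome 7, 128205435 to 128206387, minus strand), the heart and skeletal muscle form of subunit VIa, had 14, 58, 52 and 53 counts in mutants and 3, 3, 1 and 4 counts in controls. All mutants were above all controls, Mut1393 least so, with 2.37 ± 1.17 CPM in mutants and 0.169 ± 0.0751 CPM in controls (SD, n = 4 each) and a log2 fold change of 3.74 (SE 0.56, edgeR adjusted p = 0.000183). It passed the filter on low counts through the mutants alone, and a gene that passes in this way had to differ, so the call adds nothing to the counts. The fold rests on 1 to 4 counts per control, and with a filter at a mean of 10 CPM the gene was not tested. Cox6a2 made up 0.507% ± 0.242 of the summed FPKM of Cox6a1 and Cox6a2 in mutants and 0.0378% ± 0.0179 in controls. Of 4 skeletal muscle markers, Acta1 and Tnnt3 were tested and neither was called, Ckm and Myh1 had too few counts to test, with 0 in every mutant, and the summed level of the 4 was 1.32 to 2.53 CPM in mutants and 0.846 to 2.40 CPM in controls. The antisense neighbour Itgad overlaps 10.3% of the exons of Cox6a2 and had 1 count in the 8 libraries.

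Cox7a1 (ENSMUSG00000074218, chromosome 7, 30184144 to 30186078, plus strand), the muscle and brown fat form of subunit VIIa, went the other way, with 95, 27, 61 and 45 counts in mutants and 94, 100, 72 and 94 counts in controls. Levels were 4.63, 1.56, 2.97 and 2.47 CPM in mutants and 5.93, 6.0, 4.57 and 5.68 CPM in controls, so Mut1393 lay just above Con1822 and the other mutants below every control. The log2 fold change was -0.92 (SE 0.26, adjusted p = 0.0123), and without Mut1393 and Con1391, the pair with brown fat markers, it was -1.20 (adjusted p = 0.00211). With the term for Y-linked counts it was -1.17 (adjusted p = 0.0841).

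Cox8b, the form of subunit VIII used in muscle and brown fat, did not pass the filter and followed the brown fat markers library by library. It had 74, 1, 3 and 1 counts in mutants and 56, 1, 0 and 0 in controls, beside 116, 1, 6 and 2 counts of the brown fat gene Cidea in mutants and 82, 3, 1 and 0 in controls. Mut1393 and Con1391 held nearly all of these counts, 1 mouse of each group. Cox7b2 and Cox8c, known from testis, had 0 counts in all 8 mice. Cox4i2, the form of subunit IV known from lung and from oxygen sensing, had 2.53 ± 0.218 CPM in mutants and 2.26 ± 0.802 CPM in controls (log2 fold change 0.16, adjusted p = 0.623). Cox6b2, known from testis, had 12, 13.5, 12 and 11.7 CPM in mutants and 15.8, 19.6, 14.9 and 11.7 CPM in controls, with a log2 fold change of -0.33 (SE 0.14, edgeR adjusted p = 0.0707), and without Con1823, its lowest control, it was called lower (-0.44, adjusted p = 0.0128).

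**Figure D3:**
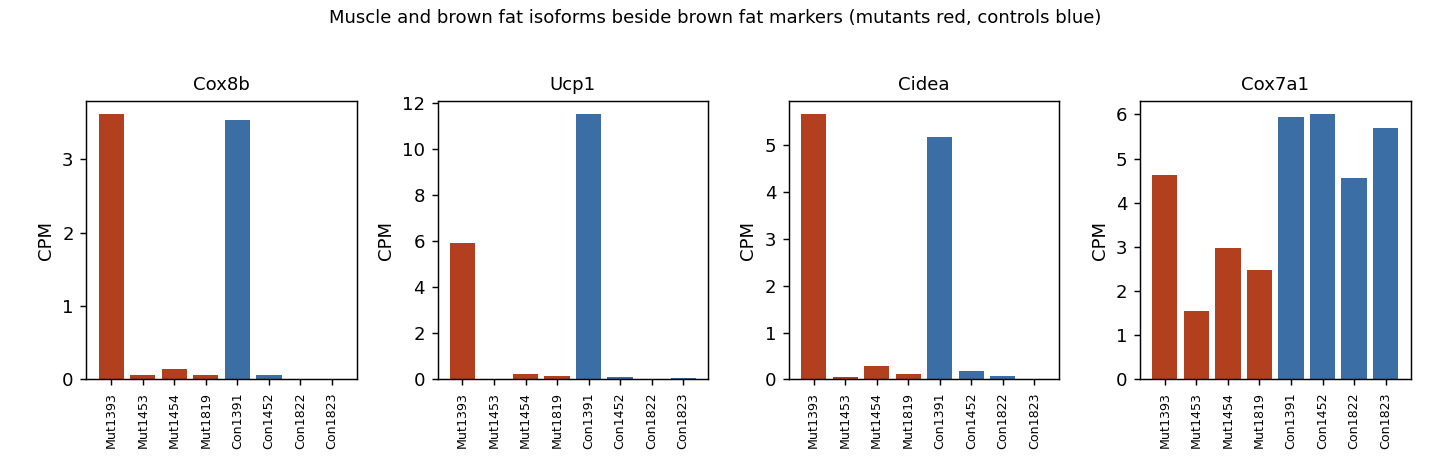
CPM per mouse (y axes from 0) of Cox8b, of the brown fat markers Ucp1 and Cidea, and of Cox7a1, with mutants as red bars on the left and controls as blue bars on the right. Cox8b reached 3.61 CPM in Mut1393 and 3.53 CPM in Con1391, the mice with most Ucp1 and Cidea, while Cox7a1 was lowest in Mut1453, Mut1454 and Mut1819.

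In complex V 3 members fell, none rose and 14 were not called, with a median log2 fold change of -0.14 over the 17. These tallies include Atp5s and Atp5sl, which carry the name only. Of the falls, Atp5e and Atp5k are subunits of the enzyme and Atp5sl is not. The subunits of the catalytic head did not pass the test: Atp5b, the catalytic beta subunit, averaged 2510 ± 222 CPM in mutants and 2606 ± 171 CPM in controls (log2 fold change -0.05, adjusted p = 0.615), and Atp5a1, the alpha subunit, 1816 ± 183 CPM in mutants and 2025 ± 101 CPM in controls (-0.16, adjusted p = 0.134). The gamma and delta subunits of the rotor stalk, Atp5c1 and Atp5d, had log2 fold changes of -0.11 and 0.02. Atp5e (ENSMUSG00000016252, chromosome 2, 174461072 to 174464105, minus strand), the small epsilon subunit of the same stalk, had 102, 106, 120 and 116 CPM in mutants and 129, 150, 126 and 141 CPM in controls. Every mutant was below every control, with a log2 fold change of -0.30 (SE 0.07, edgeR adjusted p = 0.00536), and the value with the term for Y-linked counts was -0.24 (adjusted p = 0.178).

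Atp5k (ENSMUSG00000050856, chromosome 5, 108433244 to 108434448, minus strand), the e subunit that helps ATP synthase to pair into dimers, had 44.3, 43.1, 55.1 and 45.4 CPM in mutants and 64.9, 60.6, 46.9 and 63.5 CPM in controls. Mut1454 lay above Con1822, and the log2 fold change was -0.33 (SE 0.11, adjusted p = 0.0249). That call was lost without Con1391 (-0.28, adjusted p = 0.0802), Con1452 (-0.31, adjusted p = 0.0567), Con1823 (-0.29, adjusted p = 0.0741), Mut1393 (-0.30, adjusted p = 0.0523), Mut1453 (-0.29, adjusted p = 0.072) or Mut1819 (-0.31, adjusted p = 0.0591). Atp5sl (ENSMUSG00000057229, chromosome 7, 25619414 to 25625551, plus strand), a distal membrane arm assembly factor of complex I also named Dmac2, had 42.1, 44.5, 42.1 and 42.0 CPM in mutants and 47.4, 53.6, 51.4 and 48.3 CPM in controls. The groups did not overlap, with a log2 fold change of -0.23 (SE 0.06, edgeR adjusted p = 0.00657), and the value with the term for Y-linked counts was -0.26 (adjusted p = 0.078). The peripheral stalk genes Atp5f1, Atp5h, Atp5j and Atp5o had log2 fold changes of -0.17, -0.10, -0.19 and -0.04, and the membrane subunits Atp5j2 and Atp5l of -0.14 and -0.11. None of these 6 passed the test. With the term for mouse number range Atp5f1 (-0.22, adjusted p = 0.00608), Atp5h (-0.15, adjusted p = 0.0379), Atp5j (-0.24, adjusted p = 0.0106), Atp5j2 (-0.19, adjusted p = 0.0128) and Atp5l (-0.18, adjusted p = 0.0247) were called lower, and Atp5o (-0.09, adjusted p = 0.218) was not. Near-identical copies elsewhere cover 57.4% of the transcript of Atp5l, the longest with 7 counts in the 8 libraries. Other genes annotated at the same locus overlap 47.9% of the exons of Atp5o. Gabpa, with 14080 counts, overlaps 12.7% of those of Atp5j. Wdr77, with 8775 counts, and Gm42890 overlap 8.2% of those of Atp5f1. The counts of these 4 genes are therefore uncertain.

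The c ring of ATP synthase is built from 1 mature peptide encoded by Atp5g1, Atp5g2 and Atp5g3, whose precursors differ in the targeting sequence. None of the 3 genes passed the test: Atp5g1 was at 228 ± 26.2 CPM in mutants and 225 ± 12.7 CPM in controls, Atp5g2 at 198 ± 11.8 CPM in mutants and 179 ± 18.2 CPM in controls, and Atp5g3 at 546 ± 58.0 CPM in mutants and 630 ± 51.9 CPM in controls. Their log2 fold changes were 0.02, 0.15 and -0.21 (adjusted p = 0.861, 0.128 and 0.0673). By FPKM, the shares of Atp5g2 and Atp5g3 in the sum of the 3 mRNAs separated the groups. That of Atp5g1 did not, at 7.31% in Mut1393 and 7.41% in Con1822. Atp5g2 made up 29.1%, 27.0%, 27.4% and 29.1% in mutants and 26.0%, 22.6%, 22.7% and 23.3% in controls, and Atp5g3 made up 63.6%, 65.1%, 64.8% and 62.9% in mutants and 66.8%, 70.4%, 69.8% and 69.7% in controls. The 3 shares are parts of 1 total, so a higher Atp5g2 share and a lower Atp5g3 share are not independent. No test was made on these shares, and they have no background beside them. Near-identical copies elsewhere cover 16.9% of Atp5g2 and 8.7% of Atp5g1. Without Con1391, Atp5g2 was called higher (0.21, adjusted p = 0.0489), and without Mut1454, Atp5g3 was called lower (-0.27, adjusted p = 0.0335).

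Members of all complexes shared their order among mice. Con1452 was the highest control for 39 of 46 members (84.8%), where it was the highest control for 27.4% of all genes tested, and Mut1454 was the highest mutant for 39 of 46, where it was the highest mutant for 4068 of 15028 genes. Con1822 was the lowest control for 34 members, and Mut1393 or Mut1819 the lowest mutant for 22 each. The members share these libraries and are not independent of each other. Mut1453, Mut1454 and Con1452 share the 1400 range of mouse numbers.

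**Figure D4:**
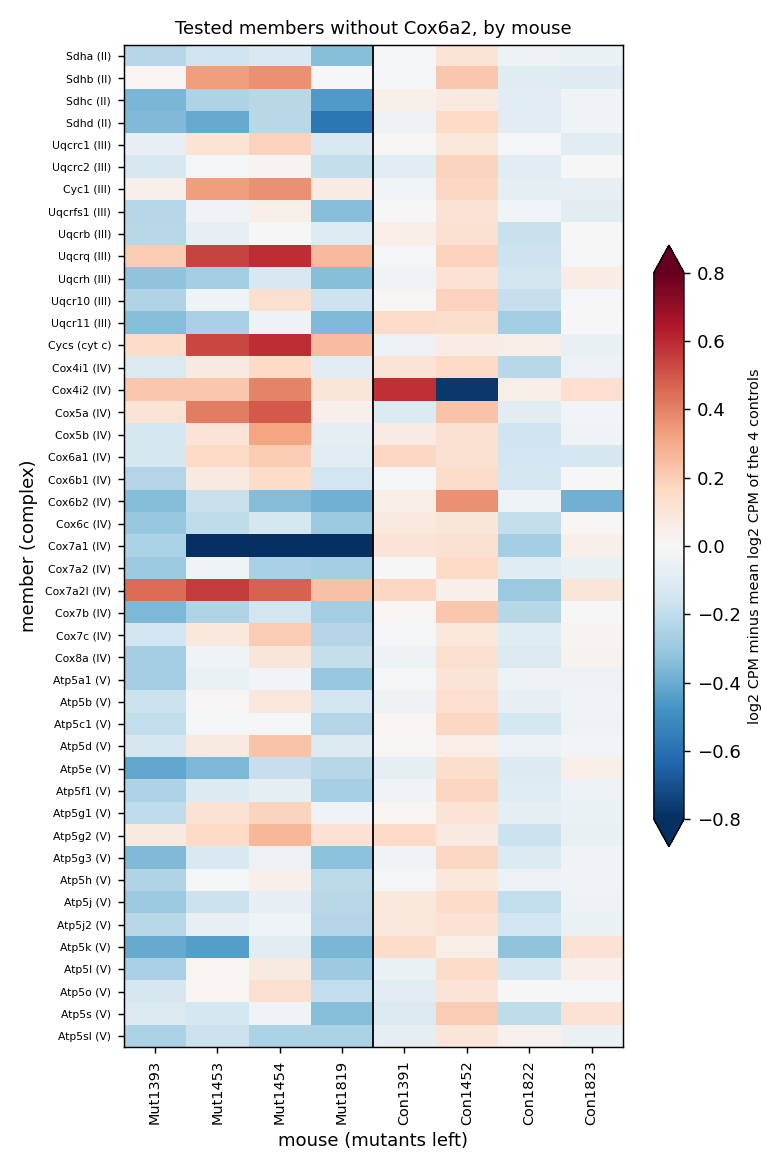
Log2 CPM of 45 tested members (rows, by complex) in each mouse (columns, mutants left of the line), minus the mean of the 4 controls, with colours capped at 0.8 in either direction. Sdha, Sdhc and Sdhd are blue in all 4 mutants, Uqcrq, Cycs and Cox7a2l are red in all 4, and the column of Con1452 is red for most members.

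Within the 1300, 1400 and 1800 ranges the median log2 difference of the 46 members was -0.22, -0.12 and -0.15, with 38, 31 and 33 members lower. No share or median of all genes was computed within the ranges, so these values have no background beside them. All 11 members called lower were lower, and all 4 called higher were higher, in each of the 3 ranges, although these are the same libraries that gave the calls and hold 2 or 3 mice each. With the term for the range, 11 of the 22 members called lower were grouped with complex V, Atp5sl among them. They included Atp5a1 (-0.21, adjusted p = 0.0152) and Atp5g3 (-0.27, adjusted p = 0.00262). Sdhb (0.09, adjusted p = 0.163) and Atp5b (-0.11, adjusted p = 0.192) were still not called. Cox5a was called higher in that fit (0.18, adjusted p = 0.0183).

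Summed over members, complex II was at 1115, 1201, 1249 and 1032 CPM in mutants and 1299, 1434, 1252 and 1264 CPM in controls, with Mut1454 just under Con1822. Complex III was at 2015 ± 196 CPM in mutants and 2017 ± 145 CPM in controls, complex IV at 2760 ± 275 CPM in mutants and 2778 ± 242 CPM in controls, and complex V at 7542 ± 683 CPM in mutants and 8113 ± 503 CPM in controls (SD, n = 4 each). The sums of complexes III, IV and V overlapped between the groups, and that of complex V includes Atp5s and Atp5sl. As a share of all counts the 49 members took 1.41% ± 0.109 in mutants and 1.4% ± 0.045 in controls. That denominator holds mitochondrial mRNAs, which differ strongly between the groups, and of the nuclear protein-coding counts the members took 1.44% ± 0.108 in mutants and 1.51% ± 0.0833 in controls.

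**Figure D5:**
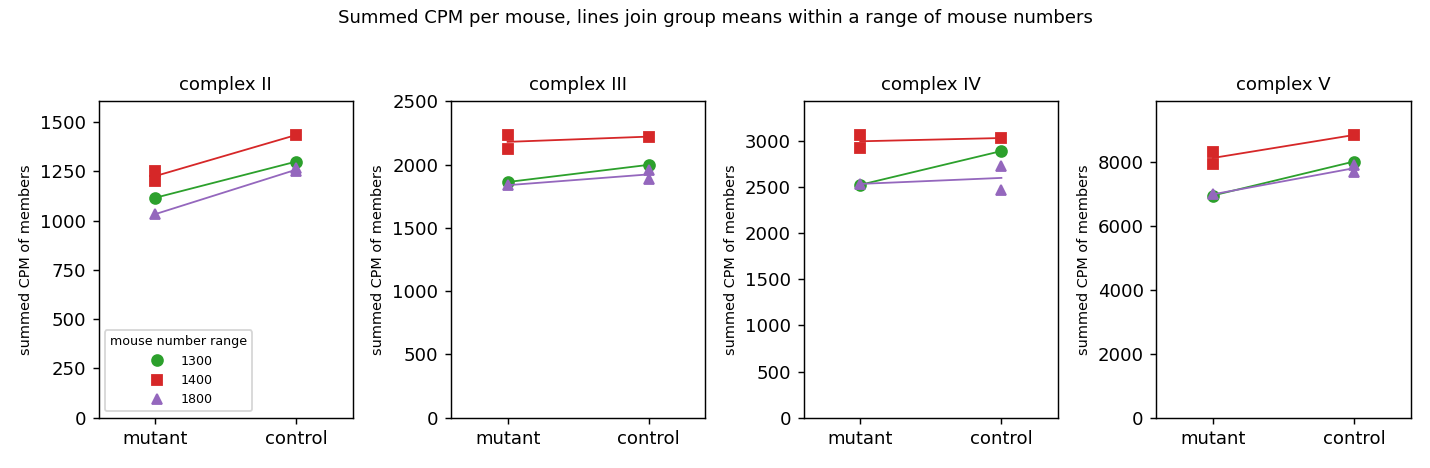
Summed CPM of the members of complexes II, III, IV and V per mouse (y axes from 0), mutants left and controls right, with a symbol per mouse number range and lines that join group means within a range. Within the 1300, 1400 and 1800 ranges the log2 difference was -0.22, -0.23 and -0.29 for complex II and -0.20, -0.02 and -0.03 for complex IV, and in every panel the mice of the 1400 range lie above the others of their group.

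The mitochondrial partners of these subunits differed far more. mt-Co1, the catalytic subunit of complex IV, had 6762, 4169, 4104 and 4210 CPM in mutants and 18084, 36976, 13644 and 22049 CPM in controls, and its counts were 2.68, 1.43, 1.34 and 1.66 times the summed nuclear complex IV counts in mutants and 6.26, 12.2, 5.54 and 8.08 times in controls. mt-Cytb over the nuclear subunits of complex III was 1.14 ± 0.348 in mutants and 5.33 ± 1.89 in controls.

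Assembly, regulatory and accessory genes of the same complexes changed in both directions. The list also holds accessory subunits, Ndufa4 of complex IV and 2010107E04Rik and Usmg5 of complex V. Their log2 fold changes were -0.25, -0.20 and -0.24 (edgeR adjusted p = 0.034, 0.0306 and 0.0644). Ndufa4 and 2010107E04Rik are thus among the falls counted here, though they are not assembly genes. Of 46 such genes listed, 45 matched the table and 2 are members, which left 43, of which 40 were tested and 16 called (40.0%, against 46.2% of all genes), 8 higher and 8 lower in mutants. Their median log2 fold change was 0.05. Uqcc2, needed to make cytochrome b of complex III, had 40.3, 51.3, 54.2 and 48.7 CPM in mutants and 32.7, 33.8, 31.6 and 30.7 CPM in controls, with no overlap and a log2 fold change of 0.59 (SE 0.09, edgeR adjusted p = 0.000152). Cox10, which makes heme O on the way to the heme A of complex IV, had 31.3, 39.3, 39.7 and 32.8 CPM in mutants and 25.9, 23.3, 24.8 and 22.6 CPM in controls, again with no overlap and a log2 fold change of 0.57 (SE 0.09, edgeR adjusted p = 0.000293). Both were also called with the term for Y-linked counts (0.60, adjusted p = 0.00848 for Uqcc2, and 0.44, adjusted p = 0.0355 for Cox10).

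The complex IV assembly factor Coa5, the X-linked heme lyase Hccs that attaches heme to c-type cytochromes, and Ttc19, which clears fragments of the Rieske protein, rose by 0.32, 0.34 and 0.37 on the log2 scale (adjusted p = 0.000889, 0.00106 and 0.00184). Atpif1, which blocks ATP synthase from running in reverse, fell by 0.33 on the log2 scale (adjusted p = 0.00164), at 51.4 ± 1.70 CPM in mutants and 64.6 ± 5.49 CPM in controls. Cox15, which follows Cox10 in heme A synthesis, was lower (-0.26, adjusted p = 0.00271). With the term for Y-linked counts Coa5 (0.26, adjusted p = 0.0649), Ttc19 (0.31, adjusted p = 0.0801) and Cox15 (-0.24, adjusted p = 0.0901) were not called, and Hccs (0.31, adjusted p = 0.0466) and Atpif1 (-0.36, adjusted p = 0.0359) were. By complex, 0 of 4 genes for complex II, 4 of 7 for complex III, 9 of 23 tested for complex IV and 4 of 8 for complex V, counting Atp5s and Atp5sl, were called. For complex III these were 3 rises and 1 fall, for complex IV 4 rises and 5 falls, and for complex V 1 rise and 3 falls. The 16 calls numbered 10 without Mut1819, where 41.9% of all genes were called. The 8 falls numbered 3 without Mut1819 or without Con1452 and 5 without Con1391, Con1823 or Mut1393, where 19.5% of all genes were called lower without Con1823 and 22.8% without Mut1393.

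Per kilobase of the longest coding transcript the 49 members spanned a wide range of levels. Atp5b led at 1310 ± 116 CPM per kilobase in mutants and 1360 ± 89.0 in controls, followed by Atp5g3 at 755 ± 80.2 in mutants and 872 ± 71.8 in controls, then Cox6a1 and Atp5a1, whose order differed between the groups by less than their spread. In complex II, Sdhc was the lowest at 55.8 ± 4.18 in mutants and 69.6 ± 3.36 in controls, below Sdha at 188 ± 12.5 in mutants and 218 ± 11.5 in controls. Gene lengths implied by the deposited counts, FPKM and library totals differ from the longest coding transcript for some members. Among them are Sdha with 747 against 2900 bases and Atp5b with 875 against 1916 bases, so the authors' FPKM rank such genes higher. By this implied length, the 28 members shorter than 1000 bases with a mean of at least 10 CPM had a median log2 fold change of -0.10 and the 15 longer ones -0.13, where 1283 and 9368 genes of the same kinds had medians of 0.06 and 0.01. The authors' deposited table called 15 members, 4 higher and 11 lower in mutants, and all 15 were also called here. Both sets of calls come from the same libraries, so they are not independent. For Cox6a2 the authors' log2 fold change was 2.64, against 3.74 here.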

How the data were processed

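RNA from renal cortex of 8 mice was isolated with a Qiagen kit and a DNase step, per the labels. The submitters' processing notes name Bowtie2, TopHat2, HTSeq and DESeq2 and the build mm10. For their versions, for strandedness and for the annotation, the sources used here give nothing. The deposited table pairs, for each mouse, gene counts of reads with FPKM, per the file headers. It also holds the authors' log2 fold change, p-value and adjusted p-value, and the authors' mean signal per group, which was not used. FPKM was used for isoform shares, for summed levels and to rank members, and in no test.

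The 15028 genes that passed filterByExpr went into edgeR 4.0.16 under R 4.3.3 (TMM, quasi-likelihood test, Benjamini-Hochberg adjustment at 0.05, no covariate). CPM are counts over TMM-scaled library sizes. Totals of 15597762 to 20417550 counts per library limit the precision of rare genes, and intervals were not computed. The settings tried beside this were DESeq2 1.42.0, limma-voom 3.58.1, median-ratio size factors, total counts alone, libraries without mitochondrial genes, no filter, a mean of at least 10 CPM, each mouse left out, terms for mouse number range and for Y-linked counts, and Mut1819 alone. The fit without Con1391 and Mut1393 was added after their brown fat markers were seen. For shares, another denominator and summed FPKM were tried, and for isoforms counts per kilobase. The pipeline was tested on simulated data. Near-identical copies were found with BLAST 2.17.0 at 99% identity over at least 50 bases among annotated GENCODE transcripts. Copies in the genome without an annotated transcript were not searched for. Positions come from GENCODE on mm10. Python 3.11.15, pandas 2.3.3 and matplotlib 3.10.9 handled tables and plots.

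Members and lists were chosen with earlier results of these data known. Named were all members called, the members of each complex with the smallest adjusted p, all isoforms with counts, the member of each complex with the highest FPKM, and up to 6 called assembly genes; other members named were chosen after their values were seen.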

Additional observations from a re-analysis of the deposited data

Results flagged for a closer look

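A gap between 1 mouse and the rest of its group was flagged for 4 members, for Cox8b in both groups, among 104 groups checked. That is no more than chance gives, about 1 in 20 groups. Cox7a2 was at 125 CPM in Mut1453, against 107 CPM in the next mutant. Cox8b was at 3.61 CPM in Mut1393, against 0.146 CPM in the next mutant, and at 3.53 CPM in Con1391, against 0.06 CPM in the next control. These 2 mice are those with brown fat markers. Atp5b was at 2859 CPM in Con1452, against 2545 CPM in the next control, and Con1452 was the highest control for 39 of 46 members. Atp5sl was at 44.5 CPM in Mut1453, against 42.1 CPM in the next mutant, and its groups did not overlap.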

How the results depend on the processing

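The calls of Sdhc and Sdhd held under the 20 settings. The 15 members called (4 higher, 11 lower) numbered 27 (22 lower) with a term for mouse number range, 4 (1 higher, 3 lower) with a term for Y-linked counts and 5 (1 higher, 4 lower) with Mut1819 alone. The split was 8 higher and 6 lower with total counts alone, and 6 were lower without Con1391 and Mut1393. With each mouse left out in turn the calls numbered 12 to 17, with 4 to 7 higher and 6 to 13 lower. The calls over all genes moved too in those fits, and numbered 6085 to 7032, with 3083 to 3570 higher and 2967 to 3462 lower. The 16 assembly genes called (8 higher, 8 lower) numbered 6 (3 higher, 3 lower) with the Y-linked term and 5 (3 higher, 2 lower) with Mut1819 alone. The lower ones numbered 3 with total counts alone, 5 with no filter and 3 without Con1391 and Mut1393. With each mouse left out they were 10 to 16 in all, 6 to 9 higher and 3 to 9 lower. Over all genes, 6948 calls became 3967 (1891 higher, 2076 lower) and 3684 (1682 higher, 2002 lower) in these 2 settings. The median of members, -0.10, was -0.224 and -0.230 there, and -0.155 to -0.049 with each mouse left out. Each complex's log2 ratio of count share moved by less than the spread between mice with summed FPKM and with each mouse left out. Nuclear protein-coding counts as denominator moved it from -0.12 to -0.19 for complex II and from 0.07 to 0.0 for complex III. Complex IV went from 0.07 to -0.01, complex V from -0.03 to -0.1, and all members from 0.01 to -0.07.

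The sign turned for members near 0. Cox4i1 was -0.003 with DESeq2 and with median-ratio size factors, -0.01 without mitochondrial genes and at 10 CPM, -0.06 with the range term, -0.10 with the Y-linked term and Mut1819 alone, and -0.07 to 0.06 with each mouse left out. Cox6a1 was -0.04 with the range term, -0.10 with the Y-linked term and Mut1819 alone, and -0.02 to 0.09 with each mouse left out. Atp5g1 was -0.03, -0.04 and -0.04 in the same 3 settings and -0.03 to 0.09 with each mouse left out. Sdhb was -0.01 with the Y-linked term and with Mut1819 alone. Cox6b1 was 0.04 with total counts alone, 0.01 without Con1391 and Mut1393, and -0.10 to 0.02 with each mouse left out. Atp5b was 0.02 with total counts alone and -0.10 to 0.001 with each mouse left out, and Cox4i2 -0.03 to 0.38. The causes were not tested. Of the values of named members under other settings, 446 kept their direction and side of the threshold, 54 lost the call, 15 gained one and 33 turned their sign. The labels give no replicate numbers to pair mice by, and the only block fitted was the mouse number range. Counts of 0 to 100 per library limit Cox6a2, Cox7a1 and Cox8b.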
